A study of Homo sapiens with 6 samples.

Results

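The miR-200 family and the miR-183 cluster were followed through quantitative PCR cards of HEK-293FT cells, an established human embryonic kidney line that carries the SV40 large T antigen. The members were taken by assay name, from a list drawn up with earlier results of these data known. Of them, hsa-miR-200b, hsa-miR-200a, hsa-miR-429, hsa-miR-200c and hsa-miR-141 make up the miR-200 family, and hsa-miR-183, hsa-miR-96 and hsa-miR-182 the miR-183 cluster. All 8 were among the 377 human miRNA assays of the card. There were 6 samples: 3 of control cells, whose treatment the labels name no further, and 3 of TruB1 KD cells, which had been transfected with siRNA against the pseudouridine synthase TruB1 using Lipofectamine RNAiMAX. Each title carries a series number from 1 to 3, used here to name the samples (control 1 and knockdown 1 are those of series 1); what the number marks is not given in the labels. The labels do not say whether the samples came from separate cultures, so the p-values below measure only the spread between these samples. The level of TruB1 was not analysed here.

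The miR-200 family is known as a guardian of the epithelial state. Its members repress ZEB1 and ZEB2, transcription factors that switch off E-cadherin and other junction genes, and ZEB1 and ZEB2 in turn repress both miR-200 clusters. The miR-183 cluster is known from sensory cells: its members are made together in the hair cells of the inner ear and in photoreceptors, and mutations in the seed of miR-96 cause inherited hearing loss. Epithelial tissues and many carcinomas also make it.

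The 8 miRNAs come from 3 genomic clusters. In the RefSeq annotation of GRCh38.p14, MIR200B, MIR200A and MIR429 lie on the plus strand within 1984 bases (chr1:1167104-1169087), inside the annotated long noncoding RNA gene MIR200BHG. MIR200C and MIR141 lie on the plus strand within 493 bases (chr12:6963699-6964191), inside the long noncoding RNA gene MIR200CHG. MIR183, MIR96 and MIR182 lie on the minus strand within 4632 bases (chr7:129770383-129775014), and no other annotated gene contains any of these 3 hairpins. Members of a cluster are thought to be cut from a shared primary transcript.

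The mature sequences are shown because the family is divided by its seeds, bases 2 to 8 counted from the 5′ end, which select the targets. The target sequence deposited for the assay equalled the RefSeq mature sequence for 8 of the 8 members. Seeds are in capitals.
miR-200b: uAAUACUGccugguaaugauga
miR-429: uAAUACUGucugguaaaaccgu
miR-200c: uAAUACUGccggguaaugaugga
miR-200a: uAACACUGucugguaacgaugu
miR-141: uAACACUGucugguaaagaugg
miR-183: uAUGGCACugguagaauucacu
miR-96: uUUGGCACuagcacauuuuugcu
miR-182: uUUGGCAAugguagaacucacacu

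In the miR-200 family, miR-200b, miR-429 and miR-200c share a seed, and miR-200a and miR-141 share the other. With positions counted from the 5′ end, the seed of miR-200a differs from that of miR-200b by U4C. Each genomic cluster thus holds both seeds, and the closest relatives lie in different clusters: miR-200a and miR-141 differ by C17A and U22G, with 20 of 22 bases identical. Over the 22 bases that miR-200b and miR-200c share in length, they too differ at 2 positions, U11G and A22G, and miR-200c has an added 3′ base. How far one assay reads its near-identical relative was not tested. The miR-183 cluster has 3 different seeds. The seed of miR-96 differs from that of miR-182 by C8A and from that of miR-183 by U2A, while over the aligned length miR-182 is identical to miR-183 at 18 of 22 bases and to miR-96 at 12 of 23.

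The cards gave a threshold cycle (Ct), the cycle at which fluorescence crossed a set level, from a single well per miRNA and sample. The earlier the Ct, the more template was present, by 2-fold for each cycle if amplification is complete. A miRNA was counted as detected at a Ct under 35. All 8 members were detected in all 3 control samples, against 47.2% of the assays of the card. In all 3 knockdown samples 6 of the 8 were detected, against 43.2% of the card, and the same 6 were detected in all 6 samples, against 41.6%. The exceptions were miR-200a, which gave no Ct in knockdown sample 2, and miR-96, which crossed at 36.7 in knockdown sample 3. The number of members detected was 8, 8 and 8 in control 1, 2 and 3 and 8, 7 and 7 in knockdown 1, 2 and 3. In knockdown sample 2, 6 assays were undetermined there and determined in every other sample, and miR-200a was among them.

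As to the whole cards, the number of assays under Ct 35 ran from 203 to 209 in control and from 188 to 226 in knockdown samples. The reference, U6 small nuclear RNA, had a mean Ct of 12.2 to 14.7 in control and 13.2 to 15.4 in knockdown samples, from 2 to 4 determined wells. The U6 wells of one card spanned from 0.36 cycles in knockdown sample 3 to 2.77 in control sample 1. In control sample 3 the 2 determined wells spanned 1.82 cycles. The mean Ct of the 157 assays under 35 in all 6 samples was 25.9 to 26.6 in control and 26.2 to 27.7 in knockdown, later in knockdown within each of the 3 series. Raw Ct was later in knockdown in all 3 series for 5 of the 7 members determined in every sample, against 61.5% of the 161 such assays. Raw Ct differences below carry that shift, and values relative to U6 carry the movement of U6.

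Within each family a single member was far ahead of the others. miR-200c crossed at 25.3, 25.8 and 25.2 cycles in control 1, 2 and 3 and at 25.7, 27.2 and 26.2 in knockdown 1, 2 and 3. Ordered by mean control Ct it stood at place 68 of the 178 assays detected in all control samples, and the other 4 family members stood between 137 and 167. If all assays amplified alike, which was not measured, miR-200c would make up 85.7% to 93.7% of the summed U6-relative level of the miR-200 family in a sample. The 93.7% was in knockdown sample 2, where miR-200a gave no Ct and was left out of the sum. Knockdown sample 3 came next at 92.3%.

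The partner of miR-200c, miR-141, crossed much later. Its Ct was 30.7, 31.9 and 30.0 in control 1, 2 and 3 and 30.9, 32.6 and 32.7 in knockdown 1, 2 and 3. Control sample 3 was the earliest and knockdown sample 3 the latest, and the groups overlapped.

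The chromosome 1 cluster was low throughout. miR-200b crossed at 29.40, 30.04 and 29.45 in control 1, 2 and 3 and at 29.21, 31.98 and 30.93 in knockdown 1, 2 and 3. miR-429 crossed at 31.2, 32.4 and 30.6 in control 1, 2 and 3 and at 31.2, 34.1 and 31.9 in knockdown 1, 2 and 3. For both, knockdown sample 2 was the latest and the groups overlapped. miR-200a crossed at 31.4, 31.3 and 29.4 in control 1, 2 and 3 and at 31.8 and 32.3 in knockdown 1 and 3. The 2 determined knockdown wells of miR-200a were later than its 3 control wells. Relative to U6 they did not separate from control. The log2 level was -16.87 in knockdown 1, above -17.31 in control 2 and -17.20 in control 3.

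In the miR-183 cluster miR-182 led. It crossed at 26.6, 25.8 and 26.0 in control 1, 2 and 3 and at 27.1, 27.3 and 27.5 in knockdown 1, 2 and 3, at place 75 of 178 in control. miR-183 crossed at 28.9, 29.4 and 29.6 in control 1, 2 and 3 and at 29.7, 30.9 and 30.6 in knockdown 1, 2 and 3. These were the members whose raw Ct values did not overlap between the groups, later in knockdown, 2 of the 7 members determined in all 6 samples against 14.9% of all 161 such assays. Relative to U6, none of the 7 members had groups that did not overlap, and for the 161 assays the share was 0%.

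miR-96, whose seed carries the hearing loss mutations, was the latest member on average and the most variable. It crossed at 31.6, 30.5 and 33.8 in control 1, 2 and 3 and at 30.9, 31.9 and 36.7 in knockdown 1, 2 and 3. Both samples of series 3 were later than the other 4.

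**Figure D1:**
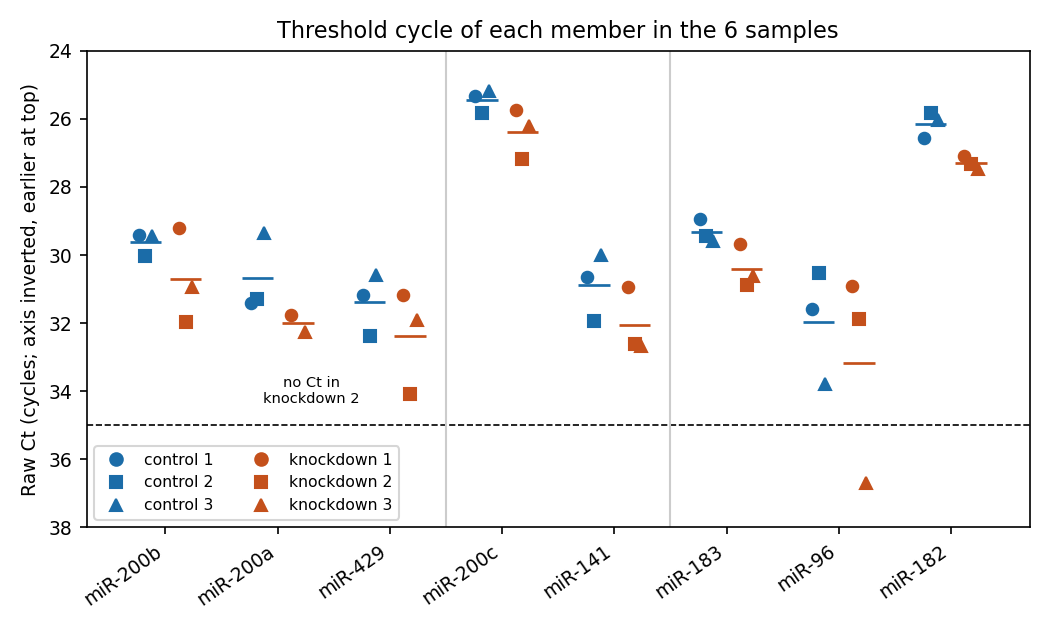
Raw Ct in cycles (inverted axis, earlier at the top) of the 8 members in control (blue) and knockdown (orange) samples, with a marker shape for each series number, short lines at group means and a dashed line at Ct 35. miR-200c and miR-182 sit at the top, and miR-96 of knockdown sample 3 is the only determined value beyond Ct 35.

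Ordered by mean control Ct, the members ran miR-200c, miR-182, miR-183, miR-200b, miR-200a, miR-141, miR-429 and miR-96. Between neighbours in this order, the difference taken within each card exceeded its own SD, with the same sign in every sample, at 1 step: miR-183 crossed 3.14 ± 0.53 cycles (SD, n = 6) after miR-182. miR-182 crossed 0.81 ± 0.59 cycles (SD, n = 6) after miR-200c, later in 5 of 6 samples. The remaining neighbours kept no common order across samples. The difference was 0.31 ± 0.55 cycles for miR-200b after miR-183 and 0.42 ± 0.72 for miR-429 after miR-141 (SD, n = 6), and 0.03 ± 0.75 for miR-141 after miR-200a (SD, n = 5). This order compares different assays and takes their efficiencies as equal.

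To see the members without U6, each was expressed on the log2 scale relative to the mean of the 157 assays under Ct 35 in all 6 samples. On this scale miR-200c was at 0.68 ± 0.13 in control and 0.80 ± 0.55 in knockdown (SD, n = 3), and it was above that mean in 6 of 6 samples. miR-182 lay close to it, at -0.01 ± 0.73 in control and -0.13 ± 0.69 in knockdown (SD, n = 3). miR-200b varied least among the control samples, at -3.50 ± 0.04, against -3.54 ± 0.65 in knockdown (SD, n = 3), where knockdown sample 2 was the lowest at -4.27.

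Spread over all 6 samples set the members apart from each other. The SD was 0.31 for miR-183, 0.36 for miR-200c, 0.42 for miR-200b and 0.43 for miR-141, below the median of 0.67 over the 161 assays determined in all 6 samples. It was 0.64 for miR-182 and 0.77 for miR-429, within the quartiles of 0.43 and 0.90. For miR-96 it was 2.11, larger than in 97.5% of these assays: the level was -5.71, -3.96 and -7.86 in control 1, 2 and 3 and -4.71, -4.17 and -9.08 in knockdown 1, 2 and 3. The series 3 samples were low in both groups.

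**Figure D2:**
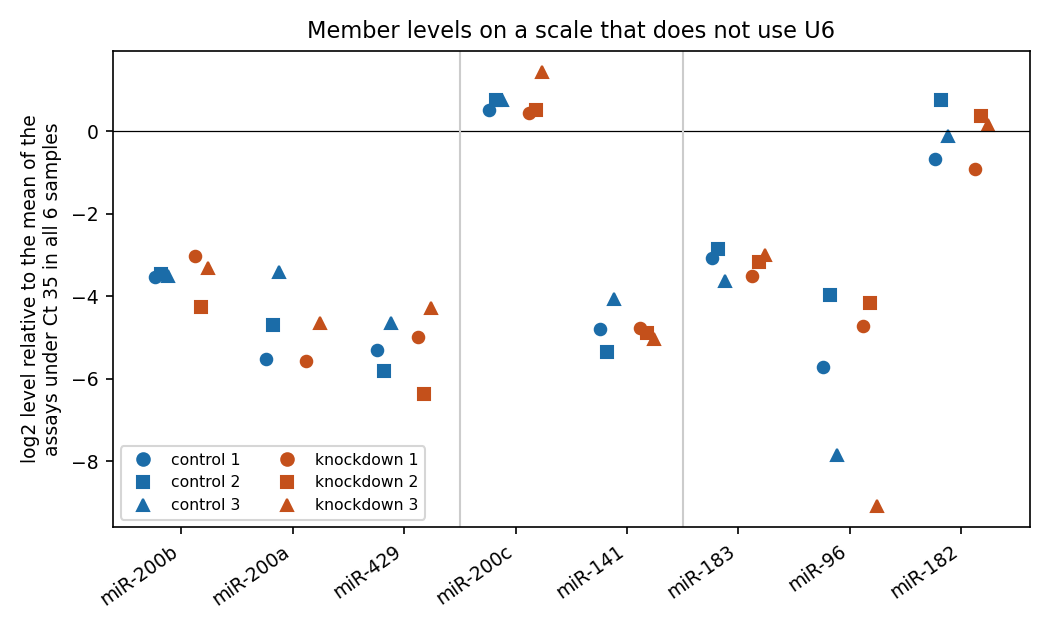
Log2 level of each member relative to the mean of the 157 assays under Ct 35 in all 6 samples, for control (blue) and knockdown (orange) samples with a marker shape for each series number. miR-200b of the control samples lies within a narrow band at -3.5, and miR-96 of series 3 lies lowest in both groups.

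Cluster partners were next set against each other on the same card, which needs no reference. miR-200c exceeded miR-141 by 5.42 ± 0.66 in control and 5.69 ± 0.68 in knockdown on the log2 scale (SD, n = 3). The knockdown minus control difference of this gap was -0.12, -0.70 and 1.65 in series 1, 2 and 3, without a common sign. miR-200b exceeded miR-429 by 1.76 ± 0.61 in control and 1.68 ± 0.62 in knockdown (SD, n = 3), with differences of 0.20, -0.25 and -0.16 in series 1, 2 and 3. Of the pairs compared within the miR-200 clusters this one differed least between knockdown and control.

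miR-200b exceeded its neighbour miR-200a, which carries the other seed, by 1.05 ± 1.06 in control (SD, n = 3) and by 1.94 ± 0.85 in knockdown (SD, n = 2). The gap was wider in knockdown by 0.54 in series 1 and 1.44 in series 3, and had no value in series 2. In the miR-183 cluster, miR-182 exceeded miR-183 by 3.18 ± 0.69 in control and 3.09 ± 0.48 in knockdown (SD, n = 3), with differences of 0.20, -0.07 and -0.39 in series 1, 2 and 3. miR-182 exceeded miR-96 by 5.83 ± 1.67 in control and 5.86 ± 2.95 in knockdown (SD, n = 3), and this gap was 7.75 and 9.24 in the control and knockdown samples of series 3 against 3.80 to 5.03 in the other 4. For comparison, the SD of such a gap over the 6 samples had a median of 0.96 over all 12880 pairs of assays determined in every sample. It was 0.53 for miR-182 and miR-183, 0.55 for miR-200b and miR-429, 0.62 for miR-200c and miR-141, and 2.14 for miR-182 and miR-96. For miR-183 and miR-96 it was 2.07, and over 5 samples it was 0.99 for miR-200b and miR-200a and 0.86 for miR-200a and miR-429. A small SD was not particular to cluster partners. Across clusters it was 0.49 for miR-200c and miR-200b, 0.55 for miR-183 and miR-200b, and 0.59 for miR-182 and miR-200c.

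**Figure D3:**
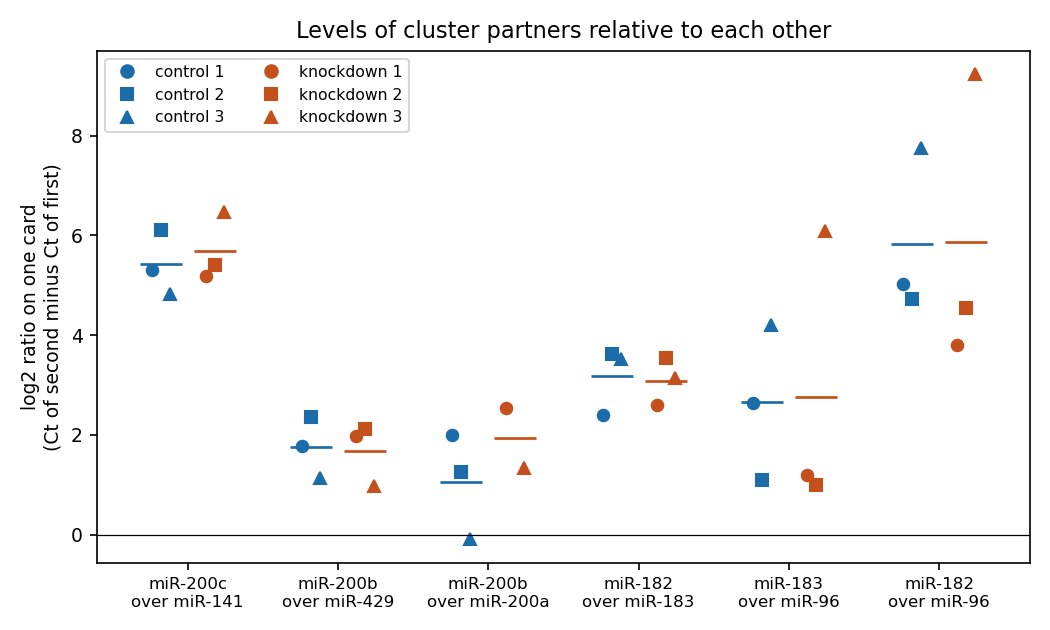
Log2 ratio of cluster partners on the same card (Ct of the second minus Ct of the first) in control (blue) and knockdown (orange) samples, with short lines at group means. The gap of miR-182 over miR-183 stays between 2.39 and 3.62, whereas that of miR-182 over miR-96 reaches 9.24 in knockdown sample 3.

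Knockdown was then compared with control on the deposited values relative to U6. The log2 level of miR-200c was -10.61, -11.86 and -13.03 in control 1, 2 and 3 and -10.87, -11.73 and -12.95 in knockdown 1, 2 and 3. That of miR-182 was -11.82, -11.85 and -13.89 in control 1, 2 and 3 and -12.22, -11.89 and -14.22 in knockdown 1, 2 and 3. For miR-200c the difference within a series was -0.26, 0.12 and 0.08. The SD of 1.21 among the control samples was taken across the series, so it does not measure the spread of such differences. For miR-182 both samples of series 3 were the lowest. The groups overlapped for both miRNAs. miR-182 was the only one of the 7 members determined in all samples that was lower in knockdown in all 3 series, against 19.3% of the 161 assays. Its differences were -0.40, -0.04 and -0.33, and on the scale of the commonly detected assays they were -0.23, -0.40 and 0.27, no longer of one sign. None of the 7 members was higher in all 3 series relative to U6 (4.35% of the 161 assays were). On the scale of the commonly detected assays 0 of 7 were lower in all 3 series (11.8% of the assays) and 0 of 7 higher (11.8%).

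No member passed the test. Of 195 assays tested in limma, 0 had an adjusted p under 0.05 (0%) and 0 an unadjusted p under 0.05 (0%), and this includes all 8 members, each with an adjusted p of 0.999. When series numbers were fitted as a replicate block, 0 of 189 assays passed the adjusted threshold (0%), while 10 had an unadjusted p under 0.05 (5.29%) and none of the 8 members was among them. Leaving series 3 out of the blocked fit gave 6 assays past the adjusted threshold in limma, and again 0 of the 7 members tested.

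The intervals say how large a change these samples could still hold. Without the block the log2 fold change of miR-200c was -0.02 (95% interval -2.90 to 2.86), and with it -0.02 (-1.0 to 0.96). For miR-182 the blocked estimate was -0.26 (-1.23 to 0.72), for miR-183 it was -0.17 (-1.17 to 0.83) and for miR-96 it was -0.28 (-1.67 to 1.10). For miR-200b it was -0.17 (-1.19 to 0.84), for miR-429 it was -0.10 (-1.08 to 0.88) and for miR-141 it was -0.29 (-1.59 to 1.0). All of these intervals include 0 and, on at least one side, a change of close to 2-fold or more, so the data do not show that the members were unaffected. miR-200a had the lowest estimate, -1.02 (-2.55 to 0.52, unadjusted p = 0.157 and adjusted p = 0.971 in limma), and it came from the 2 series in which both wells were determined. With undetermined wells set to Ct 40 its unblocked estimate moved from -0.89 to -3.09, so its size depended on how the undetermined well was treated.

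The fitted mean was below control for 8 of the 8 members, against 59.5% of the 195 assays, and the median log2 fold change was -0.21 for the members and -0.10 for all assays. Without knockdown sample 3 the fitted mean was below control for 0 of 7 members, at a median of 0.58 for the members and 0.76 for all assays. Without control sample 1 it was below for 1 of 8, at a median of 0.48 for the members and 0.58 for all assays, so in both fits the members moved with the whole card. With the commonly detected assays as reference it was below control for 6 of 8, miR-200c and miR-429 being at 0.12 and 0.04, and after quantile normalization for 5 of 7.

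**Figure D4:**
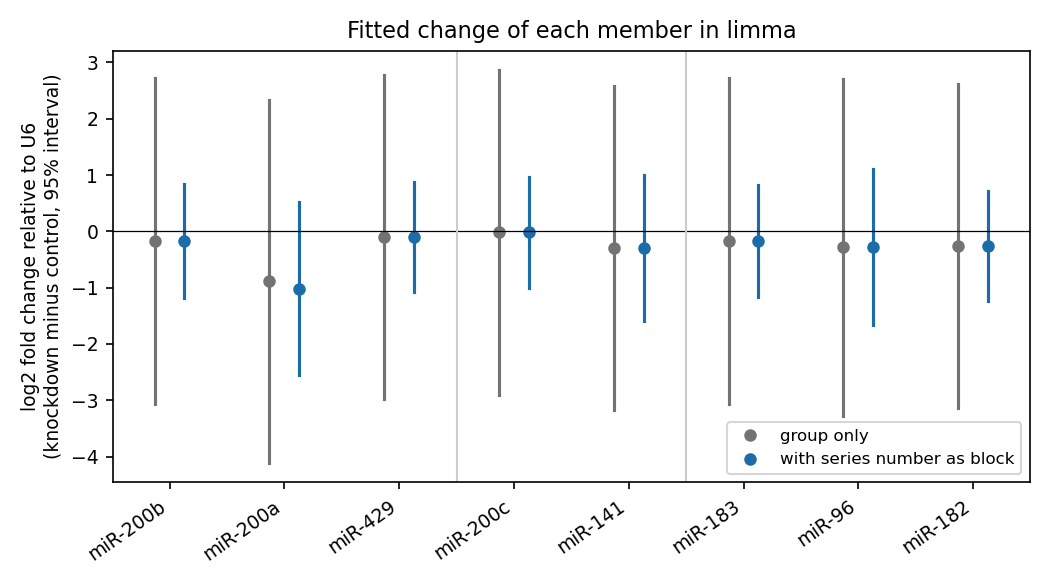
Log2 fold change of each member relative to U6 (knockdown minus control) from limma, with 95% intervals, for the fit with group only (grey) and with the series number as a block (blue). Every interval crosses 0, and the blocked ones are narrower, for example -1.0 to 0.96 for miR-200c.

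By cluster, averaged over the members determined in every sample, the difference of group means relative to U6 was small beside the spread within a group. That spread includes the differences between series. For miR-200b and miR-429 the mean log2 level was -16.89 ± 1.20 in control and -17.02 ± 1.51 in knockdown (SD, n = 3), and the differences were 0.24, -0.34 and -0.31 in series 1, 2 and 3. For miR-200c and miR-141 it was -14.54 ± 1.14 in control and -14.70 ± 1.38 in knockdown (SD, n = 3), with differences of -0.20, 0.47 and -0.74. For miR-183, miR-96 and miR-182 it was -15.52 ± 1.85 in control and -15.76 ± 2.24 in knockdown (SD, n = 3), with differences of -0.06, 0.05 and -0.70. With undetermined wells set to Ct 40, which adds miR-200a, the difference of the chromosome 1 cluster was -1.12 and not -0.14. In none of the 3 clusters did the difference keep its sign in every series.

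Between clusters the mean order was the same in both groups, but it turned on single cards. On the same card the mean of miR-200c and miR-141 exceeded that of miR-200b and miR-429 by 2.35 ± 0.07 in control and 2.33 ± 0.71 in knockdown on the log2 scale (SD, n = 3). The control samples varied little, and the knockdown samples departed from them in both directions, by -0.44, 0.82 and -0.44 in series 1, 2 and 3. The miR-183 cluster exceeded the mean of miR-200b and miR-429 by 1.36 ± 1.20 in control and 1.26 ± 1.61 in knockdown (SD, n = 3), with differences of -0.30, 0.39 and -0.39, and lay below it in knockdown sample 3 (-0.18). The mean of miR-200c and miR-141 exceeded that of the miR-183 cluster by 0.99 ± 1.25 in control and 1.07 ± 1.02 in knockdown (SD, n = 3), and lay below it in control sample 2 (-0.28).

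Within single series some members stood further out. In series 3 the difference relative to U6 was -1.82 for miR-200a, -1.57 for miR-141 and -1.82 for miR-96, against a median of -0.49 and quartiles of -1.07 and -0.03 over 188 assays. The other 5 members ranged from -0.39 for miR-200b to 0.08 for miR-200c. In the miR-200 family this separated the seeds, since miR-200a and miR-141 share one and miR-200b, miR-429 and miR-200c the other, across the genomic clusters. The grouping by seed was chosen after these values were seen, and it did not recur in the other series. The gap of miR-141 over miR-200a differed between knockdown and control by 0.07 in series 1 and 0.25 in series 3. In series 1 miR-200a and miR-141 were at -0.21 and -0.14, within the range of -0.26 to 0.33 of the other seed, and in series 2 miR-141 was the highest member at 0.83 while miR-200a had no value. The fold changes of miR-200a, miR-141 and miR-96 in series 3 were 0.282, 0.337 and 0.283 as listed in the authors' deposited table.

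In series 1 the member furthest from the rest was miR-96, at 0.83 against a median of -0.17 over 200 assays, and in series 2 it was at 0.14 against a median of 0.30 over 178 assays. The sign of the miR-96 difference thus turned between series 1 and series 3, where its knockdown well was past Ct 35. Over all members the median difference was -0.18, 0.04 and -0.36 in series 1, 2 and 3, against -0.17, 0.30 and -0.49 over all assays, so that the members' median followed that of the card and was furthest from it in series 2.

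**Figure D5:**
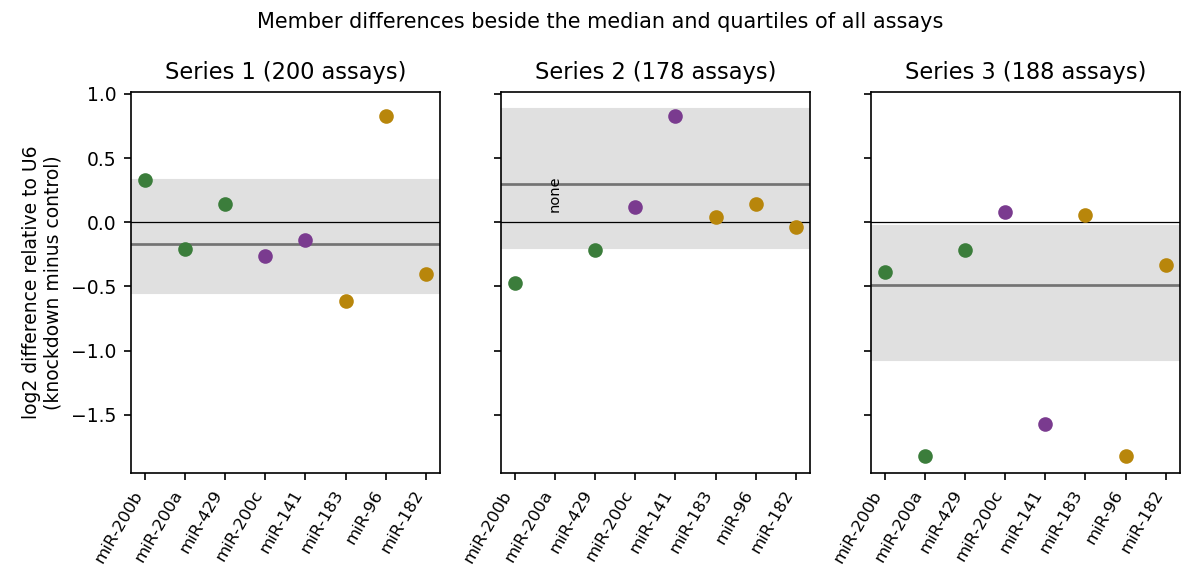
Log2 difference relative to U6 (knockdown minus control) of each member within series 1, 2 and 3, coloured by genomic cluster, beside the median (grey line) and quartiles (grey band) of all assays determined in both samples. In series 3 miR-200a, miR-141 and miR-96 lie between -1.57 and -1.82, below the band, and miR-200a has no value in series 2.

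The assays with the most similar course were taken as those with the highest Pearson correlation over the 6 samples, on the scale of the commonly detected assays, among 154 other assays determined in every sample. They describe this set of cards only, since with 6 points high values are common among so many assays. For miR-96 they were miR-625 (r = 0.971) and miR-487a (r = 0.941). For miR-429 they were miR-95 (r = 0.968) and miR-210 (r = 0.956), for miR-200b miR-548b-5p (r = 0.947) and miR-375 (r = 0.887), and for miR-141 miR-365 (r = 0.941) and miR-331-5p (r = 0.918). For miR-200c they were miR-125a-5p (r = 0.920) and miR-374-5p (r = 0.917), for miR-183 miR-324-3p (r = 0.922) and miR-99b (r = 0.862), and for miR-182 miR-107 (r = 0.876) and miR-502-3p (r = 0.836). Among the members determined in every sample, cluster partners had a lower r. The assays named above are the highest of 154, so this cannot show that partners vary apart. Over the same samples r was 0.719 for miR-200b with miR-429, 0.559 for miR-183 with miR-182 and 0.172 for miR-183 with miR-96. It was 0.090 for miR-96 with miR-182 and -0.213 for miR-200c with miR-141.

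Other miRNAs that mark epithelial cells gave a mixed picture on these cards. Of 5 listed, 3 were under Ct 35 in all 6 samples, and miR-205, which is typical of squamous and basal epithelium, was undetermined in all 6. miR-31 crossed earlier than any member, at 22.2 to 24.4 in control and 23.4 to 25.7 in knockdown samples, and miR-194, an epithelial miRNA of gut, liver and kidney, at 26.9 to 27.5 in control and 27.4 to 29.5 in knockdown. Of the 4 tested, 0 passed an adjusted p of 0.05 in limma, and their log2 fold changes ran from -0.20 for miR-31 to -0.04 for miR-203. miR-203 had no Ct in knockdown sample 2 (n = 5). Without that sample the median log2 fold change of all assays was -0.29, so its estimate is not like for like with those from all 6 samples.

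Of 6 miRNAs typical of mesenchymal cells, 0 were under Ct 35 in all 6 samples and 2 in at least 3 samples. miR-145 (29.5 to 32.7) and miR-199a-3p (28.4 to 32.4) were each determined in 5 samples, and miR-199b was undetermined in all 6. Their summed level relative to U6 was 7.42e-06 to 7.66e-05 in control and 1.69e-06 to 0.000134 in knockdown samples. Of 4 miRNAs of blood cells, 0 were under Ct 35 in all 6 samples and 2 in at least 3 samples. miR-223 was determined in 6 samples (29.5 to 36.2) and miR-142-3p in 5 (31.0 to 32.8), while miR-142-5p was undetermined in all 6. The summed level of this list was 5.39e-06 to 3.99e-05 in control and 1.95e-06 to 3.29e-05 in knockdown samples. Of the sensory and neuronal list, 4 of 5 names were on the card and 2 were under Ct 35 in all 6 samples. They were miR-9, a miRNA of neural progenitors, at 23.2 to 25.9, and miR-204, abundant in retinal pigment epithelium, at 26.8 to 28.6. This list summed to 0.000207 to 0.00179 in control and 0.000182 to 0.00343 in knockdown samples. The range overlapped that of the epithelial list, 0.000871 to 0.00328 in control and 0.000651 to 0.00302 in knockdown. Of the 7 assays tested from these 3 lists, 0 passed an adjusted p of 0.05 in limma. Their log2 fold changes ran from -1.64 for miR-223 to 1.96 for miR-124a, with 1.27 for miR-145, a wider range than that of the members. The 95% intervals were -4.62 to 1.34 for miR-223 (n = 6), -1.29 to 5.21 for miR-124a and -1.99 to 4.52 for miR-145 (n = 5). miR-124a and miR-145 had no Ct in knockdown sample 3. Without that sample the median log2 fold change of all assays was 0.76, so these 2 estimates are not like for like with those from all 6 samples. The part of these cell types in the members' values was not tested.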

How the data were processed

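Raw Ct values came from TaqMan array cards run for 40 cycles after Megaplex Pool A reverse transcription, per the labels' protocols; threshold and baseline settings are not given in the sources used here. The deposited normalized value is a ratio to U6. Recomputing it as 2 to the power of the mean determined U6 Ct minus the assay's Ct matched the deposited ratio within 6.8e-06 on the log2 scale. Per the file headers, the authors' fold changes divide the knockdown ratio by the control ratio of each series. A single well stood behind each miRNA value, and no count or depth exists for a Ct.

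The log2 of the deposited ratio was tested without a pseudocount, undetermined wells being missing, for assays with a Ct under 35 in at least 3 samples and at least 2 determined values per group. Group was the only term in limma 3.58.1 (R 4.3.3, two-sided, Benjamini-Hochberg over all assays tested, threshold 0.05). Same-numbered samples deviated together from their group means over 161 assays (r = 0.416, 0.527 and 0.625), all above 0.1. For differently numbered samples r ran from -0.536 to 0.249. Control 1 with knockdown 2 (0.249) and control 2 with knockdown 1 (0.129) were also above 0.1. The series number was also fitted as a replicate block, a pairing taken from the data.

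The members and lists were chosen with earlier results of these data known, and no p is given for a score over the members. The rule for named assays took all members, the 2 assays most correlated with each complete member, and up to 2 assays per marker list; miR-203, miR-205, miR-145, miR-199b, miR-124a and miR-142-5p were named after their values were seen. Sequences and coordinates are from RefSeq on GRCh38.p14.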

Additional observations from a re-analysis of the deposited data

How the results depend on the processing

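The number of assays called in limma at an adjusted p of 0.05 was 0 under each alternative that kept all samples, with the replicate block or without it, and 0 to 6 when a sample or a series was left out, the 6 coming from the blocked fit without series 3. No member passed under any alternative, and the replicate block changed no call of a member. Knockdown minus control, the mean number of members detected differed by -0.67 with a limit of Ct 35, by -1.33 with a limit of 32 and by -0.33 for any determined Ct.

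Of 69 values under alternatives that kept all samples, 6 reversed: 0.04 for miR-429 and 0.12 for miR-200c with the commonly detected assays as reference, each with the block and without it, and 0.12 for miR-200c and 0.11 for miR-96 with quantile normalization. Many of the 69 could not reverse, so this count does not measure stability. For a member determined in all 6 samples the block returns the unblocked estimate. The filters and Ct 40 for undetermined wells likewise return its main estimate. Of 68 values with a sample or a series left out, 22 reversed, 14 of them without control sample 1 or knockdown sample 3, where the median of all assays moved from -0.10 to 0.58 and 0.76. The values ran from -1.10 to 0.58 for miR-200b, -0.88 to 0.56 for miR-429, -0.62 to 0.59 for miR-200c, -1.04 to 0.64 for miR-141, -1.03 to 0.58 for miR-183, -0.94 to 0.46 for miR-182 and -1.93 to 2.13 for miR-96, the last without knockdown sample 3. miR-200a ran from -1.02 to -0.69 in the 5 of these fits that could test it, but was -3.09 with undetermined wells at Ct 40. The cause was not tested. The cluster means moved by less than the pooled SD of the groups relative to U6. That SD includes the differences between series, so it is a loose limit and does not show that the means were stable. Their sign turned: with a sample or a series left out they ran from -0.99 to 0.53 for the chromosome 1 cluster, -0.77 to 0.59 for miR-200c and miR-141, and -1.30 to 1.06 for the miR-183 cluster. On raw Ct the cluster means were later in knockdown by 1.04, 1.06 and 1.14 cycles, and the median log2 change of all assays on that scale was -1.0. Their SDs were 0.63, 0.66 and 0.61 cycles in control and 1.42, 0.80 and 1.20 in knockdown (n = 3). The knockdown SD was thus larger than the difference for the chromosome 1 and miR-183 clusters. In series 1 the differences were -0.09, 0.34 and 0.20 cycles. A stricter or absent filter only decides which assays are tested, so it could not move the estimate of a member. Of the members the stricter filter removed only miR-200a and miR-96. Without a filter on Ct 195 assays were tested, as in the main fit. With a single well per value, members past about Ct 31 rest on late crossings.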
